A study of Homo sapiens with 11 samples.

Results

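Tetraspanin messages were examined in 6 RNA sequencing libraries labelled as MDA-MB-231, an established human breast cancer cell line. The 10 genes described were TSPAN8, TSPAN1, TSPAN3, TSPAN4, TSPAN14, TSPAN15, CD9, CD81, CD82 and CD151, taken by symbol from a table of 37247 genes. They form part of a family of 33 genes. They were chosen by family membership with the TPM of these same libraries already known, and TSPAN8 was already known to be lower under the knockdown label. Their difference between the groups is therefore a description with no test, while the other 23 tetraspanins and a set of partner genes were tested. The lists of partner genes were also chosen with earlier results of these data known. Of the 11 samples in the series, 3 libraries carried the label H2AS40-KD and the genotype of a knockdown of S40-type H2A, and 3 carried the label Control-KD and the genotype WT. Both groups were grown alike in serum-containing medium. S40-type H2A is histone H2A with a serine at residue 40, and the series set out to profile expression in cells depleted of it. The labels give neither the knockdown reagent nor whether replicates were separate cultures, so the spread behind each p-value is that between libraries and could be technical.

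Tetraspanins are small proteins that cross the membrane several times and gather laterally with each other and with partner proteins into membrane microdomains. They hold integrins, proteases and receptors in place, steer their traffic, and are abundant on extracellular vesicles. In breast and other carcinomas CD151 is known as a partner of laminin-binding integrins, CD82 as a suppressor of metastasis, and TSPAN8 as a protein linked to motility and vesicle release.

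Values are TPM, transcript abundances in which reads are divided by gene length and each library is scaled to a sum of 1000000. TPM holds no sequencing depth, so counting error is unknown. Control-KD replicate 3 stood apart: along the first principal component, with 29.6% of variance, its score was 31.2, while the other libraries scored -12.0 to 0.784. H2AC25, an S40-type gene by recollection of the protein sequences only, had 33.3, 34.8 and 32.6 TPM in libraries labelled H2AS40-KD and 32.4, 33.5 and 31.3 TPM in Control-KD. H2AC7, another such gene by recollection, was too low to test. Its TPM were 0.968, 0 and 0.256 in libraries labelled H2AS40-KD and 0, 0 and 2.97 in Control-KD. No other H2A gene was looked at, and whether the knockdown took effect was not tested. Since these values do not show the knockdown, groups are named by their labels and directions are between labels. The mesenchymal markers VIM, CD44, AXL, EGFR and CAV1 were all present, with a sum of 2903 to 2948 TPM under the H2AS40-KD label and 3012 to 3028 TPM in Control-KD. The line is known as triple-negative and mesenchymal-like, yet 9 of 9 luminal markers also averaged at least 1 TPM. The levels of ESR1, GATA3, FOXA1 and CDH1 go against that description. PGR was near 1 TPM, at 1.80 TPM under the H2AS40-KD label and 1.70 TPM in Control-KD, and ERBB2 averaged 28.9 and 30.8 TPM. ESR1, the estrogen receptor gene, averaged 19.5 ± 2.69 TPM in libraries labelled H2AS40-KD and 14.9 ± 4.01 TPM in Control-KD (SD, n = 3 each). GATA3 averaged 448 TPM in libraries labelled H2AS40-KD and 467 TPM in Control-KD, FOXA1 89.7 and 87.5 TPM, and CDH1, which encodes E-cadherin, 58.6 and 60.2 TPM. The luminal sum was 5205 to 5258 TPM under the H2AS40-KD label and 5187 to 5260 TPM in Control-KD, so the groups overlapped. KRT8 made up most of it, at 3549 and 3587 TPM, so the sum says little about the other markers. Every library labelled H2AS40-KD lay above every Control-KD library for KRT19 and EPCAM, and below for GATA3. None of these was called (limma adjusted p = 0.371, 0.474 and 0.367), and the other luminal markers overlapped. In bulk RNA, fewer cells of a type and less RNA per cell cannot be told apart, and neither the identity of the line nor whether the libraries held more than one kind of cell was tested. Of 8 blood cell markers, 2 averaged at least 1 TPM over the 6 libraries. HBA1, a globin gene, had 5.36 to 8.91 TPM in libraries labelled H2AS40-KD and 5.50 to 8.37 TPM in Control-KD. CD14, a monocyte gene, averaged 0.696 TPM under the H2AS40-KD label and 1.33 TPM in Control-KD (limma adjusted p = 0.264). MS4A1 was listed at 0 throughout, and PTPRC stayed under 1 TPM. The summed blood markers were 6.83 to 10.2 TPM under the H2AS40-KD label and 7.78 to 11.3 TPM in Control-KD.

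TSPAN8, CD82 and TSPAN1, the 3 least abundant of the 10 genes, showed the largest differences between the groups. All 10 log2 fold changes were negative, from -0.80 for TSPAN8 to -0.02 for TSPAN4, with a median of -0.13. Over the 14160 genes tested, 46.9% were negative and the median was 0.01. In 6 of the 10 genes every library labelled H2AS40-KD lay below every Control-KD library, which was so for 11.3% of all genes tested. Because the genes were listed with this contrast known, nothing is read from these counts. The 10 genes summed to 780, 795 and 816 TPM in libraries labelled H2AS40-KD and to 879, 859 and 874 TPM in Control-KD.

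**Figure D1:**
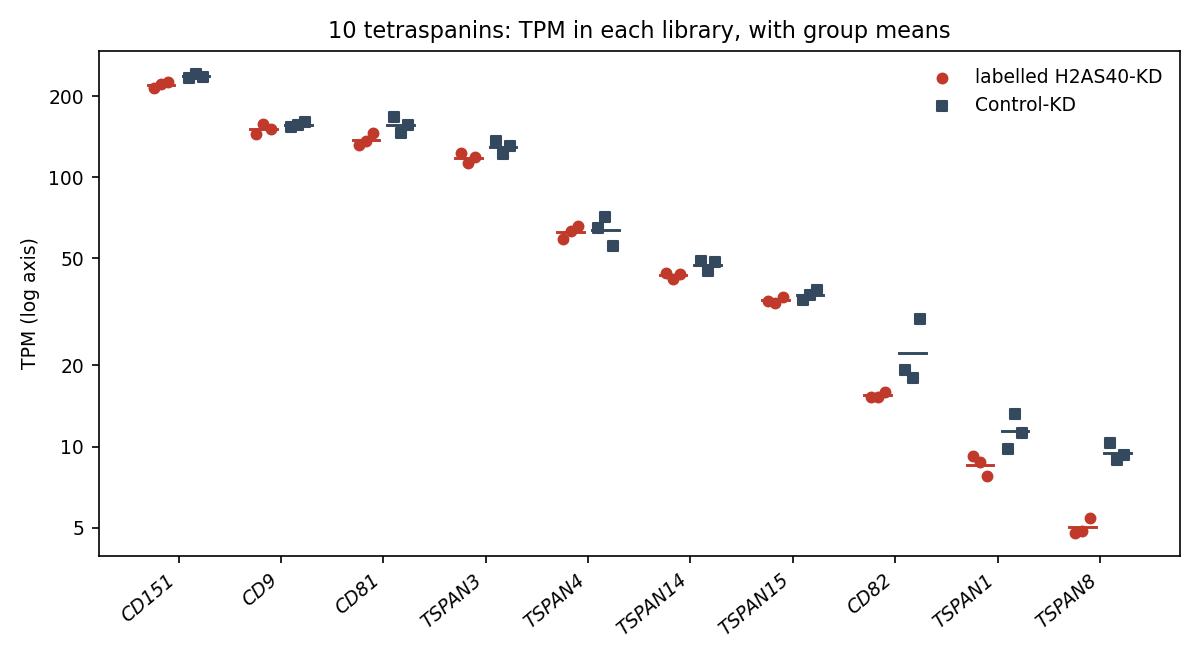
TPM of 10 tetraspanins on a log axis, in order of mean level. Circles are the 3 libraries labelled H2AS40-KD, squares the 3 Control-KD libraries, and short lines the group means. TSPAN8 sits between 4.78 and 5.42 TPM under the H2AS40-KD label and between 8.89 and 10.3 TPM in Control-KD, while for CD9, TSPAN3, TSPAN4 and TSPAN15 the groups overlap.

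TSPAN8 (ENSG00000127324.8, chromosome 12 from 71125096 to 71157999 in GRCh38.p14) encodes a tetraspanin that associates with integrins and the adhesion protein EPCAM. It had 4.78, 4.86 and 5.42 TPM in libraries labelled H2AS40-KD and 10.3, 8.89 and 9.30 TPM in Control-KD. The groups were well apart, with a gap wider than the spread inside either one. Averages were 5.02 ± 0.349 TPM under the H2AS40-KD label and 9.49 ± 0.712 TPM in Control-KD (SD, n = 3 each), a difference of -47.1%. On the log2(TPM + 1) scale, which understates the change of low genes, the fold change was -0.80 ± 0.10 (SE). Leaving out each library in turn gave -0.85 to -0.75. As a share of the TPM of the whole family, TSPAN8 made up 0.302 ± 0.0238% under the H2AS40-KD label and 0.531 ± 0.0421% in Control-KD (SD, n = 3 each).

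CD82 (ENSG00000085117.11, chromosome 11 from 44564409 to 44620358), also called KAI1, encodes a tetraspanin that restrains motility and receptor signalling. It had 15.3, 15.2 and 15.9 TPM in libraries labelled H2AS40-KD and 19.3, 18.0 and 29.7 TPM in Control-KD. The control values were uneven, because Control-KD replicate 3, the library that stood apart, lay far above the other two. The fold change was -0.47 ± 0.17 (SE) with all libraries and -0.25 without Control-KD replicate 3. The order of the groups did not rest on that library, since the other Control-KD values were still above all 3 under the H2AS40-KD label.

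TSPAN1 (ENSG00000117472.9, chromosome 1 from 46175087 to 46196489) encodes an epithelial tetraspanin. It had 9.20, 8.74 and 7.75 TPM in libraries labelled H2AS40-KD and 9.77, 13.3 and 11.2 TPM in Control-KD. The groups did not overlap, but the nearest libraries were close. The fold change was -0.37 ± 0.12 (SE), and -0.27 without Control-KD replicate 2, the highest library. In the RefSeq table the gene's span overlaps that of POMGNT1, which averaged 33.2 TPM over the 6 libraries. No source used here says whether the counting used strand, so reads in the overlap could belong to either gene.

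Start regions of these 3 genes are printed because they carry the largest differences. RefSeq promoter windows of GRCh38.p14, from 250 bases before to 50 after a start site, were matched for 7 of the 10 genes, and TSPAN3, CD81 and CD151 had none. The windows shown for TSPAN8 and TSPAN1 are at the gene's outermost start, while that of CD82, its one window, is at a start inside the gene's span (44565663). Capitals mark GC boxes (GGGCGG, or CCGCCC on the other strand), and each sequence runs 5′ to 3′ on the strand of its gene.
TSPAN8, chr12:71157950-71158249, minus strand: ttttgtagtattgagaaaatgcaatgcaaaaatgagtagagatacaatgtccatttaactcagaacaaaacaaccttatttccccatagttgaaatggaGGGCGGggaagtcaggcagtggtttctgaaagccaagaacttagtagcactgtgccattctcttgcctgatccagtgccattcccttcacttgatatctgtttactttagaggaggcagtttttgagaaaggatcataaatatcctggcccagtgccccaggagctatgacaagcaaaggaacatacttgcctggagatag
CD82, chr11:44565413-44565712, plus strand: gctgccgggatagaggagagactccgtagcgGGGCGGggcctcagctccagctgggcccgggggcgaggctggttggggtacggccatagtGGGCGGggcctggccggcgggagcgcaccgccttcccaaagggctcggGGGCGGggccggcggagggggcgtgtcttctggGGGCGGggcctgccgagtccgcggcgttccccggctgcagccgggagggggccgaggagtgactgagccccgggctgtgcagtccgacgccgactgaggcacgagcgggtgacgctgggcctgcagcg
TSPAN1, chr1:46174837-46175136, plus strand: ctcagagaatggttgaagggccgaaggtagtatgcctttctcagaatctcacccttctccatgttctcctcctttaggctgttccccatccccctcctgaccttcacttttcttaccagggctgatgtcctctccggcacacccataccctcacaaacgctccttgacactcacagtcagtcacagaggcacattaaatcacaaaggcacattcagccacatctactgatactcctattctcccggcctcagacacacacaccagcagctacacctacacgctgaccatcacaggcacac
The TSPAN8 window was poor in the dinucleotide CG, with 1 in 300 bases and a GC content of 42.3%, and it held 1 GC box. The CD82 window held 33 CG dinucleotides and 4 GC boxes at a GC content of 76.7%. The TSPAN1 window held 5 CG dinucleotides and 0 GC boxes at 52.0%. Over all 35116 windows the median was 14 CG dinucleotides and 58.7% GC, 45.0% held a GC box, and 11.0% had no more CG than that of TSPAN8. At the outermost start, TSPAN14 with 53 CG dinucleotides, TSPAN4 with 47 and TSPAN15 with 20 were above that median, and CD9 with 12 was below it. Windows at other starts of the same genes differed, with 32, 30 and 1 CG dinucleotides for CD9, 45, 11, 5 and 52 for TSPAN4, and 3 and 4 for TSPAN14. A second TSPAN8 window, nearer the gene's body, held 3 CG dinucleotides and 0 GC boxes. These counts are descriptions of the windows, and the start sites in use in these cells were not measured.

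CD81, CD151 and CD9, abundant surface and vesicle tetraspanins, had smaller fold changes than TSPAN8, CD82 and TSPAN1. CD81 (ENSG00000110651.11, chromosome 11 from 2376180 to 2397397), a vesicle protein that supports traffic of immune and adhesion receptors, had 131, 136 and 146 TPM in libraries labelled H2AS40-KD and 167, 146 and 156 TPM in Control-KD. The groups met at about the same value, with the highest library of one just under the lowest of the other. The fold change was -0.18 ± 0.06 (SE), a difference of -11.9% in mean TPM. CD151 (ENSG00000177697.18, chromosome 11 from 832952 to 838831), the partner of laminin-binding integrins, was the most abundant of the 10. It had 215, 221 and 226 TPM in libraries labelled H2AS40-KD and 234, 242 and 235 TPM in Control-KD. The groups were apart by a small step, and the fold change was -0.10 ± 0.03 (SE), a difference of -7.01% in mean TPM. CD9 (ENSG00000010278.13, chromosome 12 from 6199946 to 6238266), which binds Ig-domain partners and acts in membrane fusion, had 145, 157 and 151 TPM in libraries labelled H2AS40-KD and 154, 156 and 160 TPM in Control-KD. Its groups overlapped, with a fold change of -0.05 ± 0.04 (SE). RefSeq places an antisense gene, CD81-AS1 or CD82-AS1, over CD81 and CD82, whose reads cannot be told apart from theirs without strand.

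TSPAN14 and TSPAN15 belong to the subgroup that escorts the membrane protease ADAM10 to the cell surface. TSPAN14 (ENSG00000108219.14, chromosome 10 from 80454310 to 80522631) had 43.9, 42.0 and 43.6 TPM in libraries labelled H2AS40-KD and 48.8, 44.7 and 48.6 TPM in Control-KD. Its groups did not overlap, though the gap between the nearest libraries was small, and the fold change was -0.13 ± 0.05 (SE). TSPAN15 (ENSG00000099282.9, chromosome 10 from 69451465 to 69549508) had 34.6, 34.2 and 36.04 TPM in libraries labelled H2AS40-KD and 34.9, 36.5 and 38.2 TPM in Control-KD. Here the groups overlapped, with a fold change of -0.06 ± 0.06 (SE).

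TSPAN3 and TSPAN4 completed the set. TSPAN3 (ENSG00000140391.14, chromosome 15 from 77041404 to 77071109), a broadly expressed tetraspanin, had 122, 113 and 118 TPM in libraries labelled H2AS40-KD and 136, 122 and 130 TPM in Control-KD. The lowest Control-KD library lay just below the highest library labelled H2AS40-KD, and the fold change was -0.14 ± 0.05 (SE). TSPAN4 (ENSG00000214063.10, chromosome 11 from 842852 to 867111) marks migrasomes, the vesicles that migrating cells leave on their retraction fibres. It had 58.8, 63.1 and 66.1 TPM in libraries labelled H2AS40-KD and 64.9, 71.1 and 55.4 TPM in Control-KD. Control-KD held both the highest and the lowest library, and the fold change of -0.02 ± 0.09 (SE) changed sign with the libraries kept. It was 0.06 without Control-KD replicate 2, 0.02 without replicate 1 labelled H2AS40-KD, and -0.12 without Control-KD replicate 3. TSPAN4 lies 4020 bases from CD151, with POLR2L between them, and these neighbours had fold changes of -0.02 and -0.10.

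**Figure D2:**
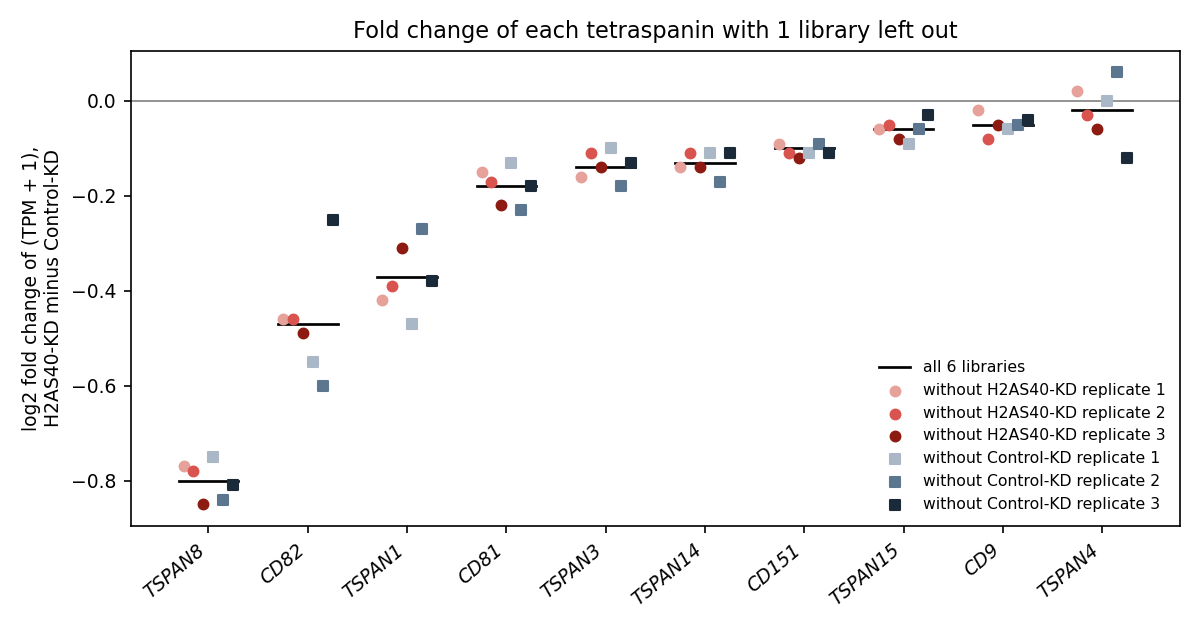
Log2 fold change of (TPM + 1), H2AS40-KD minus Control-KD, for each of 10 tetraspanins. Black lines use all 6 libraries and each point leaves out 1 library. TSPAN8 stays between -0.85 and -0.75, CD82 reaches -0.25 without Control-KD replicate 3, and TSPAN4 reaches 0.06 without Control-KD replicate 2.

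The order of levels was nearly the same in both groups. In the libraries labelled H2AS40-KD it ran CD151, CD9, CD81, TSPAN3, TSPAN4, TSPAN14, TSPAN15, CD82, TSPAN1 and TSPAN8, and the ranges of neighbours overlapped for CD9 and CD81 only. In Control-KD the order of means was the same, and ranges overlapped for CD9 with CD81 and for TSPAN1 with TSPAN8. TSPAN1 exceeded TSPAN8 by 1.71-fold in mean TPM under the H2AS40-KD label, in 3 of 3 libraries, and by 1.20-fold in Control-KD, in 2 of 3. CD151 made up 13.3% of the family's TPM in each group. Spread between replicates was widest for CD82 in Control-KD, with a coefficient of variation of 28.8%, against 2.57% under the H2AS40-KD label.

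Of the other 23 tetraspanins, 13 were tested and 0 passed limma's test (adjusted p under 0.05), beside 1.26% of all genes tested. At an unadjusted p under 0.05 there were 3, TSPAN6, TSPAN9 and CD63, all lower, which is 23.1% of the 13, where 16.5% of all genes tested reached that p. CD63, a tetraspanin of late endosomes and exosomes, dominated the family with 39.8% of its TPM under the H2AS40-KD label and 39.4% in Control-KD. It had 682, 672 and 633 TPM in libraries labelled H2AS40-KD and 685, 713 and 719 TPM in Control-KD, which did not overlap (limma adjusted p = 0.275). TSPAN6, a tetraspanin of endosomes, had the smallest p, with 14.4, 14.8 and 15.0 TPM in libraries labelled H2AS40-KD and 18.6, 17.3 and 18.3 TPM in Control-KD. Its groups were apart, with a fold change of -0.28 ± 0.07 (SE, limma adjusted p = 0.114). Of the 13 fold changes 9 were negative, and their median was -0.09. The remaining 10 were below the filter of 1 TPM in 3 libraries, among them the leukocyte tetraspanin CD53, which was listed at 0 in all 6.

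**Figure D3:**
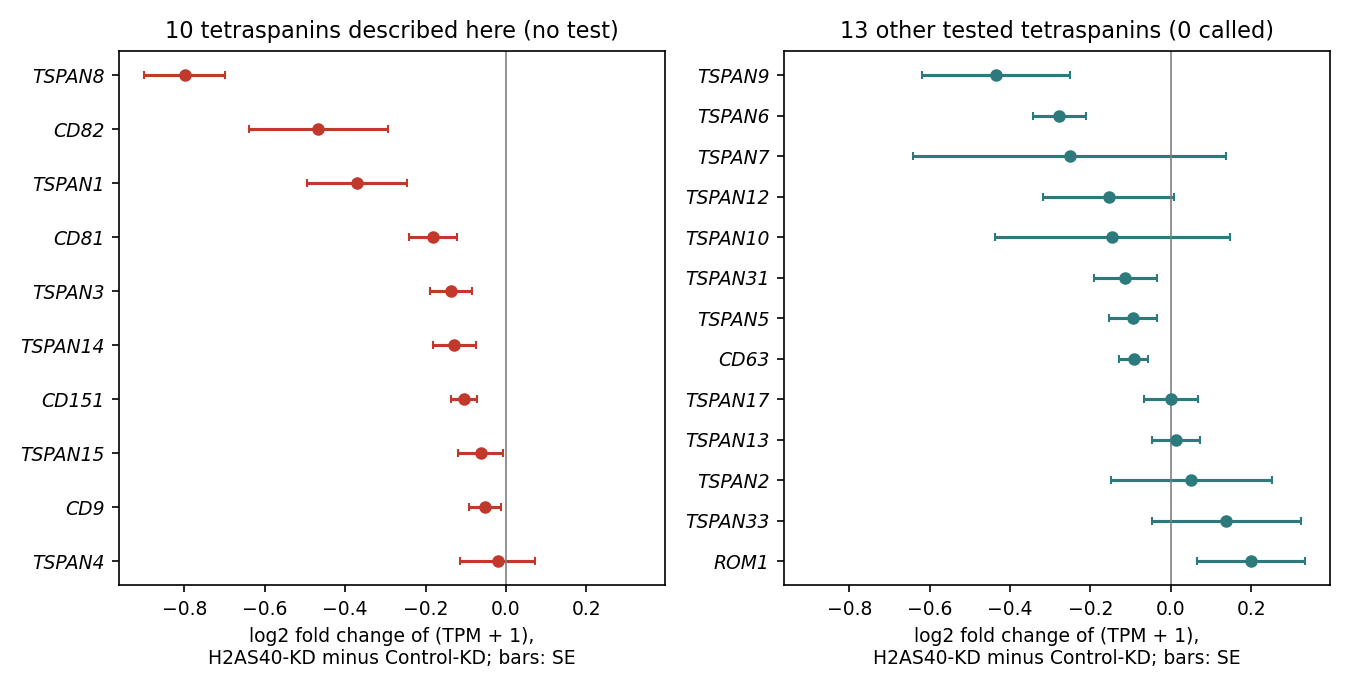
Log2 fold change of (TPM + 1), H2AS40-KD minus Control-KD, with its SE, for the 10 tetraspanins described here (left) and for the 13 other tested tetraspanins (right). Points left of 0 were lower under the H2AS40-KD label. Values run from -0.80 to -0.02 on the left and from -0.43 to 0.20 on the right, where 9 of 13 are negative.

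Of the tetraspanin partners tested, ITGA6, ITGB1, ITGA2, ADAM10, APP and CD46 were lower in libraries labelled H2AS40-KD, while others, among them ITGA3, ITGB4 and the protease ADAM17, were not called. Across 5 lists of partners and vesicle genes, 45 genes were tested, 6 fell and 0 rose by limma's test, where 0.742% of all genes tested fell. These lists were also chosen with earlier results of these data known, so nothing is read from that count. Of 6 tested partner integrins 3 fell, with a list median of -0.29. ITGA6, the alpha chain of the laminin receptors that CD151 binds, had 46.6, 50.3 and 41.8 TPM in libraries labelled H2AS40-KD and 62.4, 65.7 and 65.8 TPM in Control-KD. The groups were far apart, with a fold change of -0.48 ± 0.07 (SE, limma adjusted p = 0.0348). ITGB1, the common beta chain, had 299, 312 and 313 TPM in libraries labelled H2AS40-KD and 370, 368 and 374 TPM in Control-KD. Here too the groups were far apart, with a fold change of -0.27 ± 0.03 (SE, limma adjusted p = 0.0163). ITGA2, the alpha chain of a collagen receptor, fell by 0.33 on the log2 scale (limma adjusted p = 0.0498). ITGA3, the other abundant laminin receptor chain, averaged 188 ± 11.9 TPM in libraries labelled H2AS40-KD and 208 ± 15.0 TPM in Control-KD (SD, n = 3 each, limma adjusted p = 0.339).

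ADAM10, the protease that TSPAN14 and TSPAN15 escort, had 74.4, 70.2 and 69.6 TPM in libraries labelled H2AS40-KD and 89.3, 89.4 and 89.3 TPM in Control-KD. The gap was wide and the control libraries were nearly identical, with a fold change of -0.32 ± 0.04 (SE, limma adjusted p = 0.0225). APP, the amyloid precursor that ADAM10 sheds, also fell, to 126 ± 0.917 TPM under the H2AS40-KD label, against 149 ± 3.53 TPM in Control-KD (SD, n = 3 each, limma adjusted p = 0.0294). These were 2 of the 5 tested genes for ADAM10 and shed substrates. Of 11 other membrane partners 1 fell, the complement regulator CD46, with a fold change of -0.25 ± 0.04 (SE, limma adjusted p = 0.0459). CD44 averaged 310 ± 12.9 TPM in libraries labelled H2AS40-KD and 359 ± 6.23 TPM in Control-KD (SD, n = 3 each, limma adjusted p = 0.0543). EPCAM, a partner of TSPAN8, averaged 170.5 ± 2.99 TPM and 165 ± 1.59 TPM (SD, n = 3 each, limma adjusted p = 0.474).

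The partner calls were sensitive to leaving out 1 library, and 0 of the 6 passed without limma's intensity trend. Without replicate 1 or 2 labelled H2AS40-KD, or without Control-KD replicate 1 or 2, 0 of the 6 were called. ITGB1 alone was called without replicate 3 labelled H2AS40-KD, and ADAM10, APP and ITGB1 without Control-KD replicate 3. Every fold change stayed negative, but the groups did not overlap in these 6 genes, so leaving out 1 library could not change the sign. The mesenchymal marker CAV1, of caveolae, was lower in the same libraries, at 111 ± 5.02 TPM under the H2AS40-KD label and 149 ± 6.16 TPM in Control-KD (SD, n = 3 each, limma adjusted p = 0.0173). VIM, which made up most of the summed mesenchymal markers given above, averaged 2270 TPM under the H2AS40-KD label and 2258 TPM in Control-KD (limma adjusted p = 0.879). That sum was lower under the H2AS40-KD label, and the luminal sum, most of it KRT8, overlapped between groups. The part of these markers in the results was not tested.

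**Figure D4:**
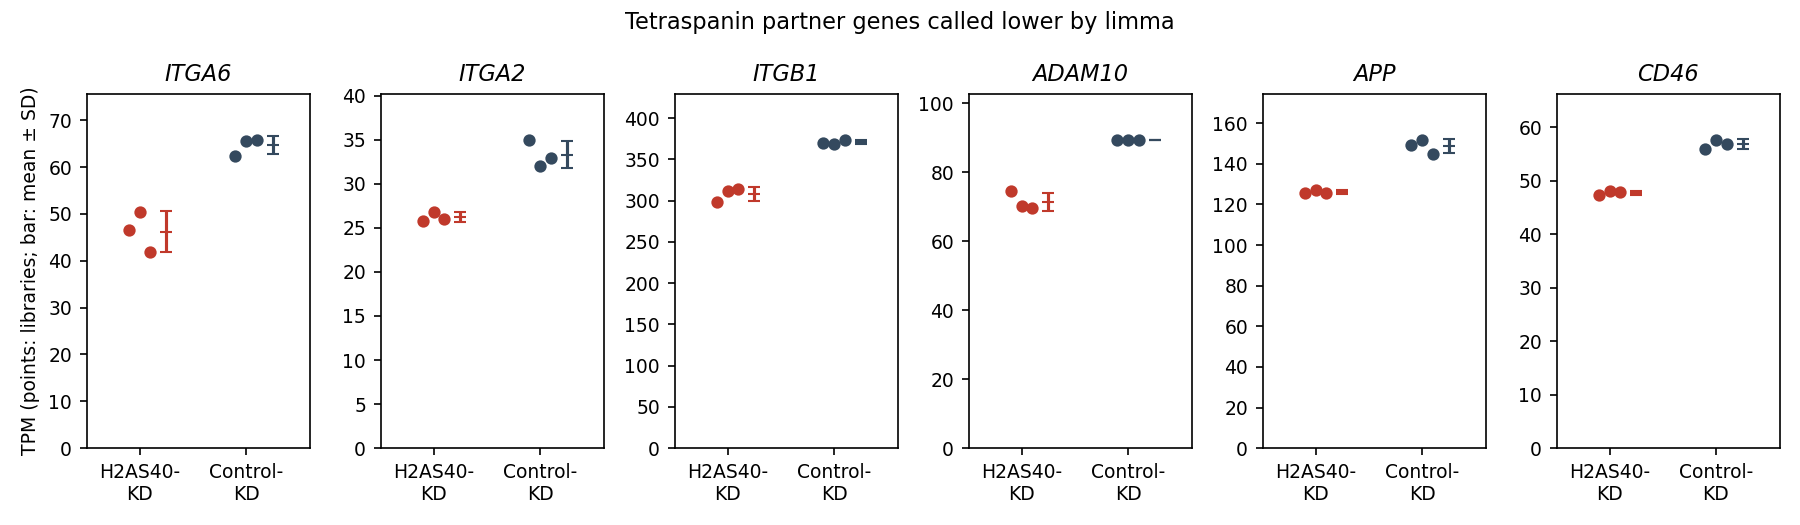
TPM of the 6 partner genes that fell by limma's test, with each axis starting at 0. Points are libraries, labelled H2AS40-KD on the left and Control-KD on the right, and bars are the mean ± SD (n = 3 each). In all 6 genes every library labelled H2AS40-KD lies below every Control-KD library, for ITGA6 between 41.8 and 50.3 TPM against 62.4 to 65.8 TPM. That was so for 11.3% of all genes tested, and these 6 were picked by the test on the same values.

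For genes of vesicle release the list median was 0.01. Limma called 0 of the 18 tested. An unadjusted p under 0.05 was reached by 5, of which 3 were lower and 2 higher, a share of 27.8%, beside the 16.5% over all genes tested. Lower were SMPD3, RAB27B and SDC1, with fold changes of -0.58, -0.15 and -0.14 (limma adjusted p = 0.275, 0.287 and 0.25). SMPD3 was near the filter, averaging 0.662 TPM under the H2AS40-KD label and 1.49 TPM in Control-KD. Higher were RAB35, with a fold change of 0.20 (limma adjusted p = 0.233), and RAB7A. RAB7A, a GTPase of late endosomes, had the smallest p, with 226, 231 and 236 TPM in libraries labelled H2AS40-KD and 220.0, 216 and 212 TPM in Control-KD. The groups did not overlap, and RAB7A was higher under the H2AS40-KD label by a fold change of 0.10 ± 0.03 (SE, limma adjusted p = 0.215). SDCBP, the syntenin that loads tetraspanin vesicles, averaged 157 ± 4.76 TPM in libraries labelled H2AS40-KD and 157 ± 6.95 TPM in Control-KD (SD, n = 3 each, limma adjusted p = 0.973). PDCD6IP, HGS, CHMP4B, CHMP2A and RAB11A, which act in endosomal sorting and recycling, had fold changes from -0.04 to 0.14 (limma adjusted p from 0.474 to 0.885). Of 7 migrasome genes, ITGB1, already counted among the integrins, was the 1 that fell.

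Profiles most like that of TSPAN8 over the 6 libraries, by the root mean square difference of centred log2(TPM + 1), belonged to TIMP3, TNS4 and PDE1C. TIMP3, an inhibitor of metalloproteinases and of ADAM proteases, differed by 0.095 and had 34.5, 35.0 and 33.7 TPM in libraries labelled H2AS40-KD and 58.7, 54.9 and 52.6 TPM in Control-KD. TNS4, a tensin of focal adhesions, differed by 0.106, and PDE1C, a cyclic nucleotide phosphodiesterase, by 0.108. Among the other tetraspanins described here the nearest was CD82, at 0.284, which ranked 482 of the tested genes, and TSPAN4 was farthest at 0.410. The likeness rests on 6 libraries in 2 groups and is a description.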

How the data were processed

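Gene-level TPM deposited by the authors for 6 RNA sequencing libraries were used, and each library summed to 1000000 TPM. Which program estimated them is not stated in the sources used here. Bowtie2, MACS2 and the build hg38 are listed without a role, per the submitters' processing notes. Depth is unknown, and 5 ChIP samples were not analysed here.

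Ensembl identifiers without their version were matched to symbols for 34436 of 37247 genes, and of the listed genes FLOT1 had no match. A gene was kept if it reached 1 TPM in 3 or more libraries (14160 genes), including all 10 tetraspanins described. Values were analysed as log2(TPM + 1) with limma 3.58.1 in R 4.3.3 (eBayes with an intensity trend, two-sided, H2AS40-KD minus Control-KD), with Benjamini-Hochberg adjustment over all genes kept and a threshold of 0.05. The step was tested on simulated data. At most 0.113% of genes kept had identical TPM in any pair of libraries, so no library duplicated another.

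The 10 genes and the lists were chosen with earlier results of these data known. Named from each other list were up to 3 called genes with the largest change, or the gene with the smallest p, and genes of at least 100 TPM on average, together with the 3 profiles most like that of TSPAN8. Other names were chosen after their values were seen. Promoter windows and gene spans are from RefSeq (GRCh38.p14). The alternatives changed the pseudocount (0.1, 0.5), the filter (none, 5 TPM), the scaling, the eBayes trend and the libraries kept, or added a replicate block.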

Additional observations from a re-analysis of the deposited data

How the results depend on the processing

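Of 14 alternatives, each kept the median log2 fold change of the 10 tetraspanins negative. The filter, the eBayes trend and the replicate block do not alter a gene's fold change, so those alternatives could not move it. Leaving out 1 library could not change the sign in the 6 genes whose groups did not overlap, nor that of the median. The median was -0.15 to -0.13 under the alternatives that kept all libraries and -0.17 to -0.11 with 1 library left out. With the processing reported it was -0.13. All 10 fold changes were negative in each alternative except without replicate 1 labelled H2AS40-KD and without Control-KD replicate 2, where TSPAN4 was positive. TSPAN8 ran from -0.90 (pseudocount 0.1) to -0.75 (without Control-KD replicate 1). Limma called 0 of the other tetraspanins in each alternative, with 1 to 3 at an unadjusted p under 0.05. Over all genes tested, 0 to 1.86% were called in the same alternatives, so 0 calls among so few genes cannot be told apart from that share.

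Among the partner genes, 6 were called with the processing reported, 4 to 7 under other pseudocounts, filters and scalings, 0 with eBayes without a trend, and 0 with the replicate block. With 1 library left out the count was 0 to 3. Over all genes 178 were called, against 98 with no filter, 10 with eBayes without a trend, 0 with the replicate block (2032 at an unadjusted p under 0.05), and 5 to 159 with 1 library left out. The cause was not tested, and a left-out library or a block also leaves fewer degrees of freedom. Whether same-numbered libraries were paired is not stated in the labels. Their deviations from their group means correlated at -0.01, -0.06 and 0.00 across genes. No shared replicate effect was seen in that, which does not exclude pairing, and the block is given here only. Depth is unknown, and levels near 1 TPM are uncertain.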
